A study of Mus musculus with 4 samples.

Results

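The 9 genes described here, which act in the recruitment of neutrophils, were followed through BMP4-dependent heterotopic ossification of injured mouse muscle. They were the CXC chemokines Cxcl1, Cxcl2, Cxcl3, Cxcl5, Ppbp and Pf4, the chemokine receptor Cxcr2, the cytokine Csf3 and its receptor Csf3r, chosen by symbol as 9 of the 32285 genes counted. Transcripts of single cells were counted in droplets (10x), each captured molecule as 1 unique molecular identifier (UMI), in 4 libraries. They came from uninjured tibial muscle (Uninjured) and from tibial muscle 1, 3 and 7 days after injection of cardiotoxin (CTX), a snake venom toxin that destroys muscle fibres (1, 3 and 7 dpi). All 4 groups were Nse-Bmp4 mice on C57BL/6 at 6 to 8 weeks of age, in which a rat neuron-specific enolase promoter drives a murine Bmp4 cDNA, and no wild-type library was analysed here. Each library pooled 3 muscles, so there was 1 library per time point, time and library cannot be told apart, and no test between time points was made. Intervals in this text are exact 95% intervals that cover counting error only.

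Cxcl1, Cxcl2, Cxcl3 and Cxcl5 are small secreted proteins that bind CXCR2, a G protein-coupled receptor on neutrophils, and direct these cells along a gradient into inflamed tissue. Ppbp encodes a platelet protein whose processed form is also a CXCR2 ligand, and Pf4 encodes platelet factor 4, which is stored in platelet granules, is made by some macrophages and lacks the motif that CXCR2 recognises. Csf3 encodes granulocyte colony-stimulating factor (G-CSF), which drives neutrophil production in the marrow through its receptor, the product of Csf3r. After muscle injury neutrophils are among the first leukocytes to enter, followed by monocytes that become macrophages.

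The 6 ligand genes lie in 1 cluster on mouse chromosome 5 (GRCm38, GENCODE M21), which spans positions 90759360 to 90905938, or 147 kb. It holds 11 annotated genes, of which 7 are protein-coding and all of those lie on the plus strand, in the order Cxcl5 (90759360 to 90761624), Ppbp (90768518 to 90770063), Pf4 (90772435 to 90773383), Cxcl3 (90786103 to 90789600), Cxcl15, Cxcl1 (90891241 to 90893115) and Cxcl2 (90903871 to 90905938). The remaining members lie elsewhere, Cxcr2 on chromosome 1 (74153989 to 74161246), Csf3 on chromosome 11 (98701263 to 98703629) and Csf3r on chromosome 4 (126024550 to 126044440). Promoter windows from RefSeq (GRCm38.p6, 250 bases before to 50 after the start) were searched on both strands for the consensus of NF-kB, the transcription factor that drives many inflammatory genes. The stretches around the match are shown for Cxcl1, Cxcl2 and Cxcl3 because these 3 promoters, among the 7 members with a window, held it. Each is written 5′ to 3′ on the plus strand with the matching bases in capitals.
Cxcl1 (chr5:90891159-90891199): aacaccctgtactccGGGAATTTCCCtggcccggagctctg
Cxcl2 (chr5:90903787-90903827): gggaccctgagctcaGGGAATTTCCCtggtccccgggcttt
Cxcl3 (chr5:90786013-90786053): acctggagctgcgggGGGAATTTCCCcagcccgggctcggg
The capitals cover a plus-strand match and a minus-strand match that overlap it by all but 1 base at each end. The plus-strand match began 71 bases before the RefSeq start of Cxcl1, 97 before that of Cxcl2 and 73 before that of Cxcl3. These RefSeq starts differ from the GENCODE gene starts given above. Of all 32851 promoter windows of this length, 1480 (4.51%) held the consensus. The windows of Ppbp, Pf4, Cxcr2 and Csf3r held no match.

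Of 62665 deposited cells 57155 were kept, and 46521 of these fell into 1 of 14 cell classes by marker genes, none of them a member. Median depth per kept cell differed between libraries, at 8629 UMIs in Uninjured and 3083 at 7 dpi, so levels are given as a gene's UMIs per 1000000 UMIs of a class in a library (CPM). All 146 levels of held-out marker genes examined in the classes they mark lay above the level over all cells of the same library. Between 4.68% (Uninjured) and 28.2% (7 dpi) of kept cells had no class. At 7 dpi cells with no class held 20.3% of Cxcl1, 15.0% of Cxcl5, 28.1% of Pf4 and 23.7% of Cxcr2 UMIs, which are missing from the class shares given below. Pairs of libraries shared 30 to 95 barcodes. Mesenchymal cells, the Pdgfra-expressing stromal cells of muscle, numbered 9106, 4019, 6696 and 10883 in Uninjured and at 1, 3 and 7 dpi. Neutrophils numbered 51, 463, 289 and 84, or 0.457%, 4.48%, 2.12% and 0.381% of kept cells, and monocytes and macrophages 272, 1721, 857 and 296. B cells (206, 1395, 379 and 175), which are not a known source of these chemokines, are given as the background level. Their median depth was lower than that of mesenchymal cells in each library, as given with Cxcl1. Comparisons with this background are of CPM and are not corrected for depth.

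Over all kept cells, 7 of the 9 genes had their lowest level in Uninjured, Pf4 had its lowest at 7 dpi, and Cxcl1 had its highest in Uninjured. Cxcl1 stood at 1047, 387, 584 and 389 CPM in Uninjured and at 1, 3 and 7 dpi. Cxcl2 stood at 143, 1094, 317 and 152 CPM and was highest at 1 dpi, as were Cxcl3 (0.298, 11.9, 6.95 and 2.70 CPM), Pf4 (8.07, 77.4, 32.2 and 6.19), Cxcr2 (1.39, 27.6, 7.46 and 2.2) and Csf3r (2.64, 48.3, 14.1 and 5.35). Cxcl5 alone was highest at 3 dpi, at 0.883, 83.3, 165 and 11.4 CPM. Ppbp (0, 45, 19 and 7 UMIs in all) and Csf3 (3, 86, 49 and 15 UMIs) were scarce in every library. These sums mix the level within each class with the number of its cells, which are separated in what follows. They leave out cells above an upper limit of UMIs per cell, as described below. In Uninjured 190 mesenchymal cells above it held 2176 Cxcl5, 381 Cxcl3 and 4421 Cxcl2 UMIs. All kept Uninjured cells held 89, 30 and 14383. With the cells above the limit, mesenchymal Cxcl5 stood at 23.0 CPM in Uninjured and 21.0 at 7 dpi, and Cxcl3 at 4.10 and 2.18. Neither was then lowest in Uninjured in that class, while Cxcl2 (65.3 and 97.3 CPM) still lay lower in Uninjured. The count of 7 genes thus holds for kept cells only. The order of libraries over all cells was not recomputed with the cells above the limit.

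**Figure D1:**
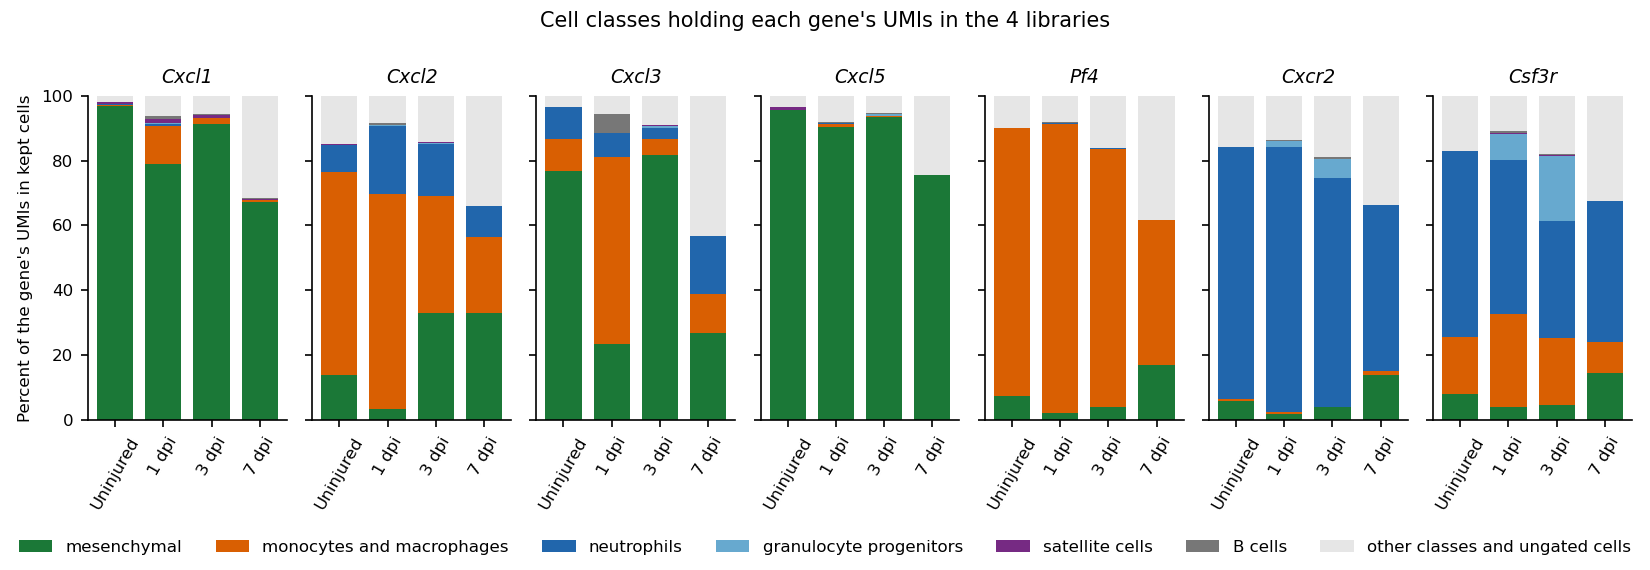
Percent of each gene's UMIs in kept cells (vertical axis) that came from each cell class, for 7 of the 9 genes in the 4 libraries. Mesenchymal cells, 81.5% of kept cells in Uninjured, held 97.0% of Cxcl1 UMIs and 95.5% of Cxcl5 UMIs there. Monocytes, macrophages and neutrophils held most UMIs of Cxcl2, Cxcr2 and Pf4 at 1 dpi.

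Most Cxcl1 transcripts lay in mesenchymal cells in all 4 libraries. Mesenchymal cells held 97.0%, 79.0%, 91.5% and 67.4% of its UMIs in Uninjured and at 1, 3 and 7 dpi. These shares stand beside 81.5%, 38.9%, 49.1% and 49.4% of kept cells, so the level per class is the closer comparison. Their level was 1164 CPM (1157 to 1171) in Uninjured, 638 (630 to 646) at 1 dpi, 831 (824 to 838) at 3 dpi and 448 (443 to 453) at 7 dpi, so it was highest without injury and no 2 intervals overlapped. The ratio to Uninjured was 0.548 (0.540 to 0.556), 0.714 (0.706 to 0.721) and 0.385 (0.380 to 0.390), of which only the last lay past 2-fold. At least 1 Cxcl1 UMI was found in 77.4%, 69.2%, 71.5% and 57.8% of mesenchymal cells (median depth 9253, 8190, 6033 and 3569 UMIs), against 9.71%, 13.2%, 10.8% and 9.71% of B cells (2454, 2873, 1801 and 1448 UMIs). Thinned to 1000 UMIs per cell, the shares were 46.8%, 32.5%, 39.4% and 28.1% against 3.88%, 4.53%, 5.16% and 7.36%. The thinning left out 0, 6, 160 and 583 mesenchymal cells and 0, 4, 30 and 12 B cells below that depth.

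Depth and stress genes were also lower in mesenchymal cells after injury. The summed level of 12 dissociation and immediate early genes, which tissue digestion itself can induce, was 31896, 21152, 12961 and 10707 CPM in mesenchymal cells. Atf3, a stress-induced transcription factor, had a ratio to Uninjured of 0.307 (0.303 to 0.311), 0.192 (0.189 to 0.194) and 0.171 (0.169 to 0.173). The part of digestion in the Uninjured level of Cxcl1 was not tested.

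Muscle precursor, perivascular and cartilage cells also carried Cxcl1. In satellite cells, the muscle stem cells, it stood at 711 CPM (664 to 760), 893 (807 to 986), 291 (267 to 318) and 224 (192 to 261), so that satellite cells exceeded mesenchymal cells at 1 dpi and lay under them in the other libraries. Their dissociation gene sum stood at 50466, 79399, 18674 and 27140.5 CPM, also highest at 1 dpi, and its part was not tested. In pericytes and smooth muscle cells, which wrap blood vessels, Cxcl1 was at 164 CPM in Uninjured and 463 at 7 dpi, a ratio of 2.83 (2.30 to 3.51), which went to -0.38 on the log2 scale with cells that carried markers of a second class removed. At 7 dpi the level of pericytes overlapped in its interval with that of mesenchymal cells, and chondrocytes, the cartilage cells found in that library alone (2830 cells), followed at 303 CPM with a UMI in 51.7% of cells.

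Monocytes and macrophages held less Cxcl1, at 141, 260, 199 and 129 CPM (310, 3572, 886 and 176 UMIs), and were highest at 1 dpi with a ratio of 1.84 (1.64 to 2.08). Neutrophils stood at 158, 64.1, 49.0 and 153 CPM, where 27 of the 38 Uninjured UMIs came from 1 cell. B cells lay at 51.2, 58.2, 44.0 and 64.8 CPM and NK and T cells at 23.5, 38.7, 48.2 and 66.6, so the neutrophil levels at 1 and 3 dpi were close to background.

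**Figure D2:**
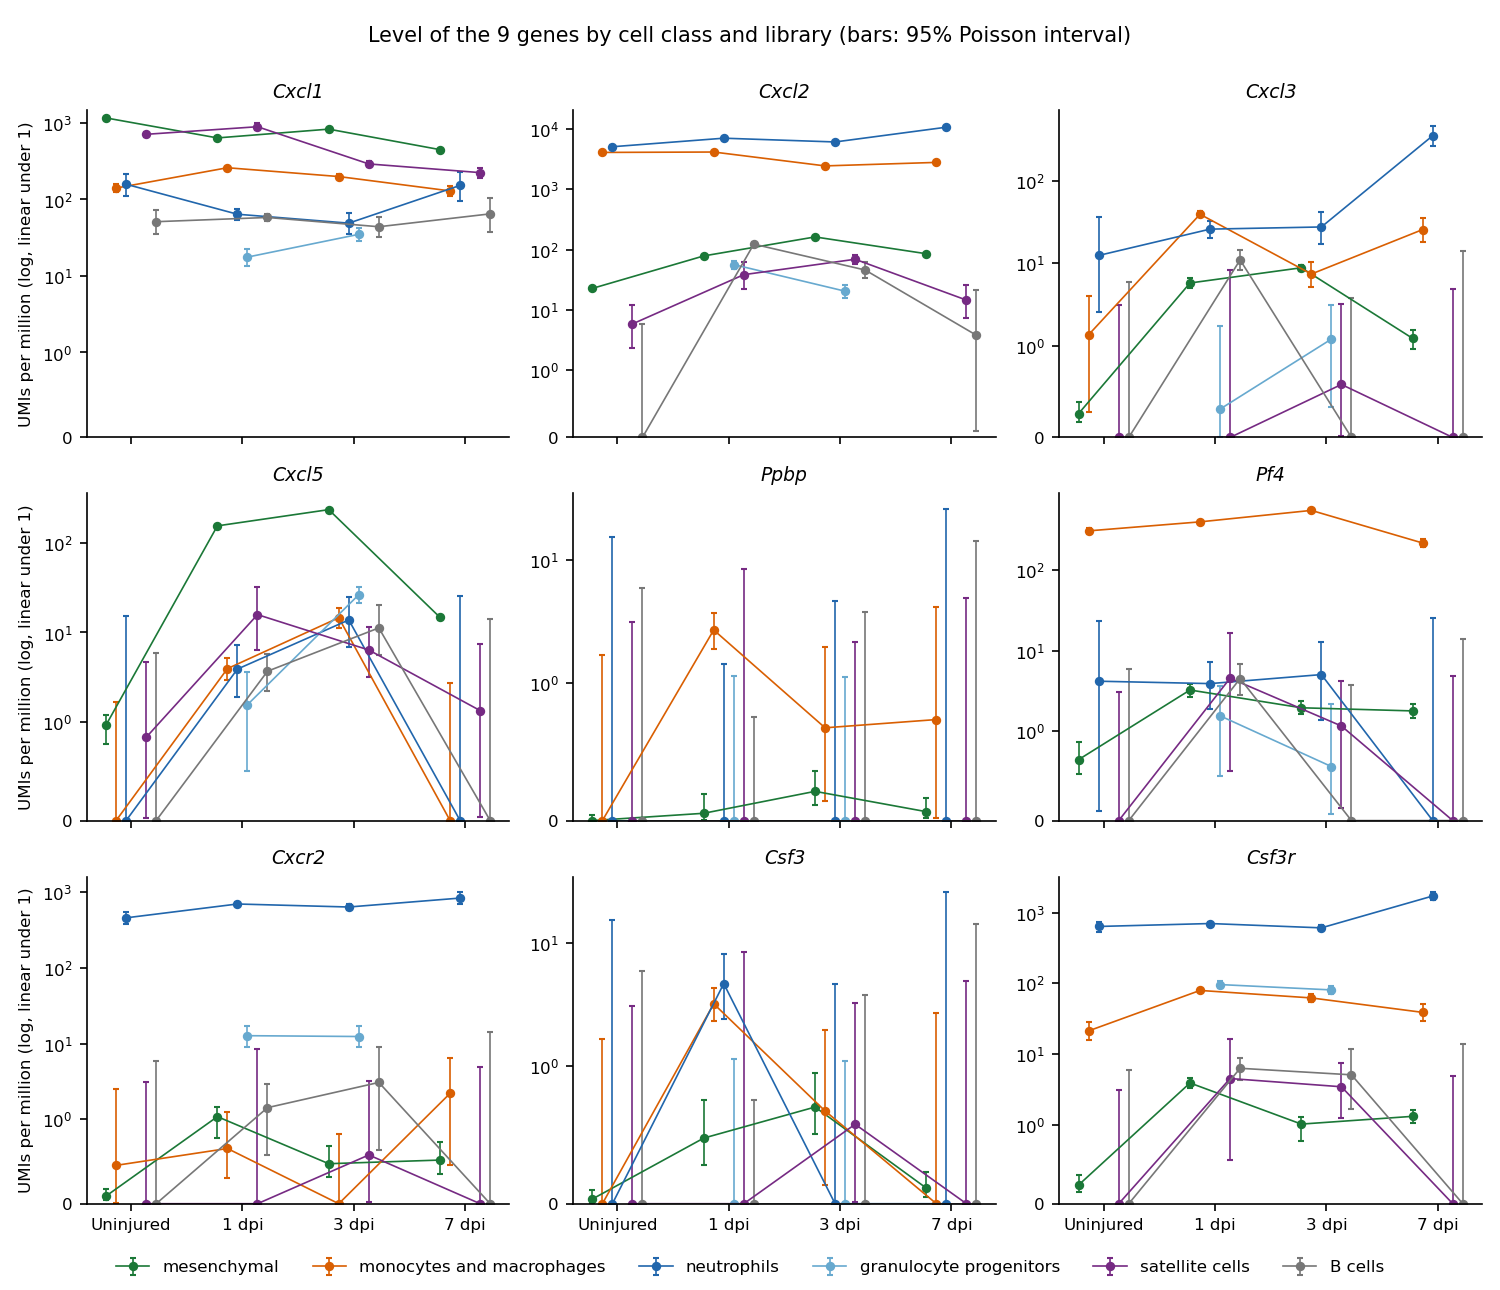
Level of each of the 9 genes (CPM, symmetric log axis) in 6 cell classes by library, with exact 95% counting intervals as bars. Cxcl1 sits highest in mesenchymal and satellite cells, Cxcl2 in neutrophils and in monocytes and macrophages, and Cxcl5 goes from 0.966 CPM in Uninjured to 239 CPM at 3 dpi in mesenchymal cells.

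By level Cxcl2 had the reverse distribution and was highest in myeloid cells. Mesenchymal cells, the largest class, still held 2009 of 14383 Cxcl2 UMIs in Uninjured and 2970 of 86003 at 1 dpi. They held 9945 of 30154 at 3 dpi and 5293 of 16097 at 7 dpi. Neutrophils stood at 5080 CPM (4799 to 5373), 7037 (6935 to 7141), 6096 (5926 to 6270) and 10712 (10184 to 11260) in Uninjured and at 1, 3 and 7 dpi. Monocytes and macrophages stood at 4090 (4006 to 4175), 4151 (4117 to 4186), 2445 (2399 to 2492) and 2795 (2707 to 2885). Neutrophils were above monocytes and macrophages in all 4 libraries without overlap of the intervals.

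In monocytes and macrophages the Cxcl2 level was almost equal in Uninjured and at 1 dpi, with a ratio of 1.02 (0.993 to 1.04), and lower at 3 dpi (0.598, 0.581 to 0.615) and 7 dpi (0.683, 0.658 to 0.710), short of 2-fold. The 7.67-fold higher level over all cells at 1 dpi went with more cells, as monocytes and macrophages made up 2.44% of kept Uninjured cells and 16.7% of those at 1 dpi. Cxcl2 UMIs were found in 59.6%, 80.7%, 67.2% and 58.8% of monocytes and macrophages (median depth 7078, 7634, 4962 and 3914 UMIs), and in 0%, 15.6%, 3.43% and 0.571% of B cells. Thinned to 1000 UMIs the shares were 49.3%, 67.3%, 55.6% and 47.3% against 0%, 5.46%, 2.01% and 0%.

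In neutrophils the Cxcl2 ratio to Uninjured was 1.39 (1.31 to 1.47) at 1 dpi, 1.20 (1.13 to 1.28) at 3 dpi and 2.11 (1.95 to 2.27) at 7 dpi, from 51 Uninjured cells. Only the 7 dpi ratio passed 2-fold, and it rested on 84 cells of which 75 were poor in granule transcripts, a state described further on.

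Mesenchymal Cxcl2 was lower by a wide margin, at 22.8, 78.8, 163 and 85.6 CPM, with ratios of 3.45 (3.26 to 3.65), 7.13 (6.79 to 7.48) and 3.75 (3.56 to 3.95). With cells above the upper limit of UMIs per cell included, as described below, they were 1.5, 3.12 and 1.49, past 2-fold at 3 dpi alone. At 1 dpi this level lay under the 123 CPM (114 to 134) of B cells in the same library, where 111 of 605 UMIs came from 1 cell, so the level of the whole class is not set apart from background there. Its distribution over cells is given with that of Cxcl5. At 3 and 7 dpi it lay above the B cells, which stood at 46.0 and 3.81 CPM. Few cells carried it, since 50% of the mesenchymal Cxcl2 UMIs came from 18 cells in Uninjured, 58 at 1 dpi, 160 at 3 dpi and 220 at 7 dpi. Pericytes and smooth muscle cells held 2 Cxcl2 UMIs in Uninjured and 118 CPM at 7 dpi, a ratio of 39.3 (10.7 to 328). Mesenchymal markers in that class summed to 469 CPM in Uninjured and 2129 CPM at 7 dpi, and their part was not tested. The Cxcl1 ratio of the class changed direction with cells that carried markers of a second class removed, as given above.

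Cxcl3 was present in the same classes as Cxcl2 in small numbers of UMIs. Mesenchymal cells held 23, 218, 541 and 76 UMIs, or 0.261, 5.78, 8.85 and 1.23 CPM, with ratios to Uninjured of 22.1 (14.4 to 35.7), 33.9 (22.3 to 53.9) and 4.71 (2.92 to 7.86). With cells above the UMI limit included, as described below, they were 3.62, 2.58 and 0.532. At 1 dpi the B cells held 11 CPM of Cxcl3, 48 of their 54 UMIs in 1 cell, and none in the other libraries. Monocytes and macrophages held 3, 542, 33 and 35 UMIs (1.36, 39.4, 7.43 and 25.7 CPM) and were highest at 1 dpi with a ratio of 28.9 (9.84 to 141), while 22 of the 35 UMIs at 7 dpi came from 1 cell. Neutrophils held 3, 67, 22 and 51 UMIs (12.5, 26.0, 27.7 and 354 CPM) and were highest at 7 dpi, with a ratio of 28.4 (9.17 to 142), and the intervals of their ratios at 1 and 3 dpi included 1.

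Cxcl5 was mainly mesenchymal and was highest at 3 dpi. Mesenchymal cells held 95.5%, 90.5%, 93.4% and 75.5% of its UMIs, beside the shares of kept cells given for Cxcl1. Their level was 0.966 CPM (0.771 to 1.19) in Uninjured, 157 (153 to 161) at 1 dpi, 239 (235 to 243) at 3 dpi and 14.7 (13.8 to 15.7) at 7 dpi, from 85, 5930, 14622 and 911 UMIs. The level was 16.2 times (15.2 to 17.4) lower at 7 dpi than at 3 dpi. The ratios to Uninjured were 163 (132 to 204), 248 (200 to 310) and 15.3 (12.2 to 19.3), and they depended on the upper limit of UMIs per cell in Uninjured, as described below.

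A minority of mesenchymal cells made this signal. Cxcl5 UMIs were found in 0.505%, 10.3%, 22.1% and 3.42% of mesenchymal cells, against 0%, 1.29%, 2.64% and 0% of B cells, at the median depths given for Cxcl1. Thinned to 1000 UMIs the shares were 0.110%, 3.34%, 8.90% and 1.19% against 0%, 0.359%, 1.15% and 0%. In mesenchymal cells 50% of the Cxcl5 UMIs came from 6, 22, 137 and 51 cells, and the highest cell held 19, 415, 167 and 30. The level in B cells was 0, 3.67, 11.3 and 0 CPM, and the 54 UMIs at 1 dpi (3.93 CPM) and 65 at 3 dpi (14.6 CPM, 32 of them in 1 cell) of monocytes and macrophages were near it.

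Cells with Cxcl5 overlapped with cells that carry Prg4, which encodes the joint lubricant lubricin. Mesenchymal cells with a Prg4 UMI stood at 2.72, 248, 285 and 22.0 CPM of Cxcl5, and those without at 0.503, 45.5, 61.6 and 13.2 CPM. The ratio of the first to the second was 5.40 (3.44 to 8.57), 5.45 (5.06 to 5.89), 4.62 (4.30 to 4.98) and 1.66 (1.42 to 1.93). Median depth differed in the same direction, at 10723, 9650, 9477 and 5584 UMIs with Prg4 and 8990, 7148, 3780 and 3345 without, and its part was not tested. Cells with a Prg4 UMI numbered 1569, 1884, 4142 and 1395, and those without 7537, 2135, 2554 and 9488. The division was not particular to Cxcl5. Cxcl3 had ratios of 4.13, 3.03, 6.02 and 2.65, and Cxcl2 1.67, 2.34, 2.71 and 0.999. Cxcl1 showed less of this division, with ratios of 0.895, 1.02, 1.48 and 1.39, the last close to that of Cxcl5. Cells with a UMI of Pi16, a marker of adventitial fibroblasts, had Cxcl5 ratios of 0.588, 0.717, 0.996 and 0.797 over cells without.

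The chemokines were found together in the same mesenchymal cells at 1 and 3 dpi. Thinned to 1000 UMIs, 60.4% (51.6 to 68.8) of cells with Cxcl5 also had a Cxcl1 UMI at 1 dpi against 31.6% of cells without Cxcl5. The shares were 58.1% (53.9 to 62.1) against 37.6% at 3 dpi and 35.8% (27.3 to 44.9) against 28.0% at 7 dpi, where the interval included the lower share. In Uninjured 8 of 10 cells with Cxcl5 had Cxcl1, or 80% (44.4 to 97.5), against 46.8%. For Cxcl2 the shares were 20.1% (13.7 to 27.9) against 5.54% at 1 dpi, 19.6% (16.4 to 23.0) against 5.76% at 3 dpi, and 7.32% (3.40 to 13.4) against 7.26% at 7 dpi. In monocytes and macrophages Cxcl2 was found in 94.4%, 91.6%, 79.8% and 76.5% of cells with Cxcl1 and in 46.1%, 63.9%, 51.7% and 45.5% of those without.

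The Uninjured level of Cxcl5 depended on a few cells with very many UMIs. The kept cells exclude those more than 2 SD above the mean log10 UMI count of their library, and 194 Uninjured cells above that limit, with a median of 51435 UMIs among the 190 gated as mesenchymal, were set aside. Those 190 cells held 2176 Cxcl5 UMIs (208 CPM, a UMI in 44.7% of cells) against 85 in the 9106 mesenchymal cells within the limit, or 96.2% of both together. They held 94.3% of the Cxcl3 and 68.8% of the Cxcl2 UMIs on the same basis, while Cxcl1 was at 1608 CPM above the limit and 1164 within. Their leading genes over the cells within the limit included Timp1, Cthrc1, Cxcl5, Tnc, Prg4, Ccl2 and Inhba along with histone genes, and Mki67, a gene of dividing cells, stood at 119 CPM against 12.9. Ptprc, which marks leukocytes, was at 2.39 CPM against 3.97 within the limit. Of the 190, 23 carried 3 or more markers of a second class. The part of mixed droplets in these values was not tested.

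With all cells above the limit included, an alternative chosen after seeing the data, mesenchymal Cxcl5 stood at 23.0, 278, 290 and 21.0 CPM. The ratios to Uninjured were then 12.1 (11.6 to 12.7), 12.6 (12.1 to 13.2) and 0.913 (0.856 to 0.974), so the higher level at 1 and 3 dpi remained and the one at 7 dpi did not. Cxcl3 had ratios of 3.62, 2.58 and 0.532, Cxcl2 1.5, 3.12 and 1.49, and Cxcl1 0.566, 0.733 and 0.398. Among cells of like depth, 1 and 3 dpi lay above Uninjured in each bin of UMIs per cell, and 7 dpi in all bins but that above 40000 UMIs. Among mesenchymal cells of up to 5000 UMIs Cxcl5 stood at 0.294, 41.1, 74.9 and 11.4 CPM, among those of 20000 to 40000 UMIs at 3.63, 550, 436 and 41.0, and among those above 40000 UMIs at 239, 1492, 430 and 66.3.

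**Figure D3:**
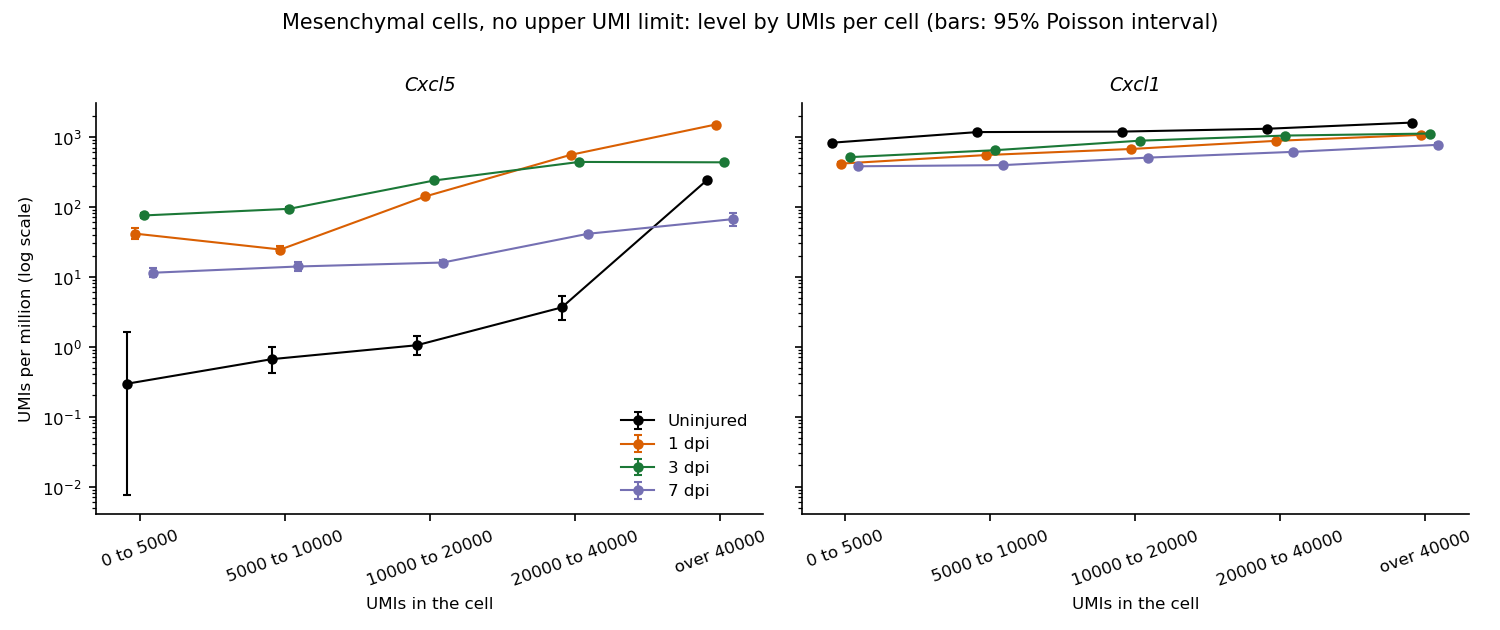
Cxcl5 and Cxcl1 level (CPM, log axis) in mesenchymal cells binned by UMIs per cell, by library and with no upper UMI limit, with exact 95% counting intervals. Below 40000 UMIs Cxcl5 in Uninjured stays at 3.63 CPM or less and reaches 239 CPM above it, while Cxcl1 is high in Uninjured in every bin.

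The platelet chemokines gave a mixed picture. Ppbp was almost absent, with 0, 37, 3 and 1 UMIs in monocytes and macrophages, 0, 2, 13 and 4 in mesenchymal cells and none in neutrophils, and 50% of the 37 UMIs came from 3 cells. Platelet-gated barcodes numbered 0, 1, 2 and 0, so platelets themselves were scarcely sampled. Pf4 was instead a macrophage transcript here, with 82.7%, 89.4%, 79.8% and 45.0% of its UMIs in monocytes and macrophages. At 7 dpi 28.1% of its UMIs lay in cells with no class.

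Monocytes and macrophages held Pf4 at 306 CPM (283 to 330), 396 (386 to 407), 549 (528 to 572) and 216 (192 to 242), highest at 3 dpi. The ratios to Uninjured were 1.29 (1.19 to 1.40), 1.79 (1.65 to 1.96) and 0.706 (0.614 to 0.811), none past 2-fold. Pf4 UMIs were found in 19.5%, 32.7%, 37.2% and 14.5% of these cells and, thinned to 1000 UMIs, in 9.93%, 16.5%, 22.6% and 7.14%. B cells held none except 4.49 CPM at 1 dpi. The 8 platelet markers summed to 1.36, 4.08, 3.83 and 5.15 CPM in monocytes and macrophages, with 6, 4, 5 and 6 of the 8 at 0, so platelet transcripts were near absent in the class. Mesenchymal Pf4 was at 0.682, 3.24, 1.95 and 1.78 CPM, at 1 dpi below the level of B cells but with overlapping intervals.

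Within the class, Pf4 followed complement C1q, whose 3 genes mark mature tissue macrophages. Cells with UMIs of C1qa, C1qb and C1qc stood at 1022, 773, 891 and 670.1 CPM of Pf4, and cells with no C1q UMI at 63.5, 164, 67.1 and 33.6. The ratio was 16.1 (12.7 to 20.6), 4.71 (4.40 to 5.04), 13.3 (10.8 to 16.4) and 19.95 (13.4 to 30.9), and was smallest at 1 dpi, when the cells without C1q had their highest level. Depth was alike between both sets at 1 dpi, with medians of 7626 and 7812 UMIs. The division was not particular to Pf4. Cxcl1 was also higher with C1q, with ratios of 4.22 (3.28 to 5.46), 1.20 (1.11 to 1.29), 1.47 (1.26 to 1.72) and 3.70 (2.66 to 5.18). Cxcl2 differed less by C1q, with ratios of 2.41, 0.997, 1.05 and 2.0. Csf3r had ratios of 0.415 (0.156 to 0.940), 0.832 (0.726 to 0.953), 0.742 (0.575 to 0.959) and 0.675 (0.321 to 1.32), of which the last interval included 1.

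Csf3 was scarce in each class. Monocytes and macrophages held 0, 44, 3 and 0 UMIs, mesenchymal cells 3, 18, 43 and 7, and neutrophils 0, 12, 0 and 0. With 3 UMIs put in place of the 0 in Uninjured, the level in monocytes and macrophages at 1 dpi was 2.35-fold higher. This is a convention and not a lower limit of the counting interval. In mesenchymal cells the ratio was 14.0 (4.09 to 74.2) at 1 dpi and 20.6 (6.61 to 104) at 3 dpi, where 15 of the 43 UMIs came from 1 cell. B cells held no Csf3 UMI.

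Cxcr2 was found mainly in neutrophils, which held 77.9%, 81.9%, 70.6% and 51.3% of its UMIs. Their level was 454 CPM (372 to 547), 690.2 (658 to 723), 629.8 (576 to 687) and 826 (684 to 989), lowest in Uninjured. The ratios were 1.52 (1.25 to 1.86), 1.39 (1.13 to 1.72) and 1.82 (1.39 to 2.38), none past 2-fold. Cxcr2 UMIs were found in 84.3%, 85.3%, 72.0% and 65.5% of neutrophils (median depth 3212, 4303, 1950 and 1322 UMIs) and, thinned, in 49.0%, 53.1%, 54.8% and 64.8%, so the share was lowest at 7 dpi before thinning and highest there after it. B cells stood at 0, 1.43, 3.07 and 0 CPM. Granulocyte progenitors, gated on markers such as Mpo and Elane (150 and 258 cells at 1 and 3 dpi), stood at 12.7 and 12.4.

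Csf3r was shared by neutrophils, their precursors and monocytes. Neutrophils stood at 637 CPM (540 to 746), 700.3 (668 to 733), 608 (555 to 665) and 1715 (1507 to 1942), with ratios of 1.1 (0.932 to 1.31), 0.956 (0.795 to 1.15) and 2.69 (2.19 to 3.32). Granulocyte progenitors stood at 96.2 and 80.9 CPM at 1 and 3 dpi, with a UMI in 78.0% and 60.5% of cells. Monocytes and macrophages were at 21.4 (15.7 to 28.4), 79.5 (74.9 to 84.4), 62.3 (55.2 to 70.1) and 39.0 (29.2 to 51.0), which passed 2-fold at 1 dpi (3.72, 2.78 to 5.09) and 3 dpi (2.92, 2.13 to 4.06). The 8 neutrophil markers moved alongside in that class, at 24.6, 137, 103 and 55.9 CPM in sum with 4, 0, 1 and 3 of 8 at 0, and their part was not tested. B cells lay at 0, 6.33, 5.12 and 0 CPM.

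Mesenchymal Cxcr2 (0.0909, 1.09, 0.475 and 0.518 CPM) and Csf3r (0.239, 3.93, 1.03 and 1.33 CPM) had ratios of up to 12.0 and 16.5 at 1 dpi, yet lay below the B cells at 1 and 3 dpi. The neutrophil markers summed to 4.75, 147, 63.0 and 31.6 CPM in the mesenchymal cells and 22.4, 161, 52.2 and 7.63 in the B cells. The B cell levels of Cxcr2 rested on few UMIs, and at 1 and 3 dpi their intervals overlapped those of mesenchymal cells. For Csf3r the intervals of both classes overlapped at 1 dpi. Compared as CPM, both receptors are therefore not set apart from background in mesenchymal cells at 1 and 3 dpi. B cells had the lower depth, and UMIs per cell were not compared.

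Among neutrophils, Cxcl2, Cxcr2 and Csf3r divided by granule content. Camp, Ngp and Ltf encode secondary granule proteins that neutrophils make before they mature, and cells in which these genes gave 1% or more of UMIs were set against cells with under 0.1%. At 1 dpi 198 granule-rich cells stood at 2122 CPM of Cxcl2 and 193 granule-poor cells at 16059, a ratio of 7.57 (7.28 to 7.87). At 3 dpi 141 and 111 cells stood at 1837 and 17912, a ratio of 9.75 (9.08 to 10.5). Cxcr2 was 3.61 (3.25 to 4.03) and 3.13 (2.57 to 3.81) times higher in the granule-poor cells, and Csf3r 8.11 (7.19 to 9.16) and 8.08 (6.5 to 10.1) times. Of the Cxcl3 UMIs 0 and 2 were in granule-rich cells at 1 and 3 dpi, against 61 and 20 in granule-poor cells. Median depth was lower in the granule-poor cells, at 2745 against 6956 UMIs at 1 dpi and 1447 against 3009 at 3 dpi.

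The share of these states differed between libraries. Granule-poor cells were 28 of 51 neutrophils in Uninjured, 193 of 463 at 1 dpi, 111 of 289 at 3 dpi and 75 of 84 at 7 dpi. Within the granule-poor cells alone Csf3r stood at 1444 CPM (1208 to 1714), 1793 (1691 to 1900), 1721 (1531 to 1927) and 2234 (1961 to 2536), and Cxcl2 at 11301, 16059, 17912 and 13676. Csf3r at 7 dpi was thus above Uninjured there by less than in the whole class, from 28 Uninjured cells, under the 50 asked of other groups. In neutrophils thinned to 1000 UMIs, Csf3r was found in 48.0%, 64.5%, 58.3% and 91.3% of cells with Cxcr2 and 26.9%, 34.7%, 34.5% and 68.0% of those without.

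**Figure D4:**
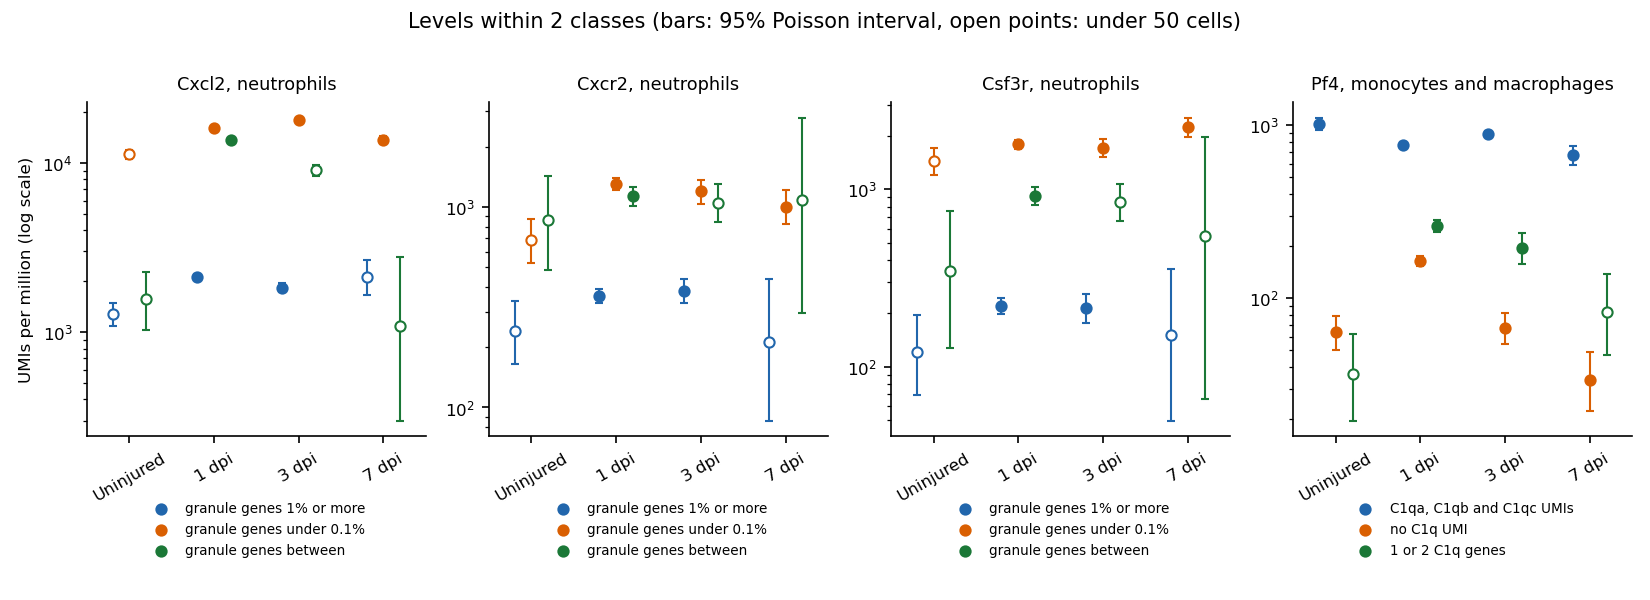
Level (CPM, log axis) of Cxcl2, Cxcr2 and Csf3r in neutrophils split by granule transcripts and of Pf4 in monocytes and macrophages split by C1q genes, by library, with exact 95% counting intervals. Open points rest on fewer than 50 cells. At 1 dpi granule-poor neutrophils reach 16059 CPM of Cxcl2 against 2122 in granule-rich cells.

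Counted together, a gene was tested where both libraries of a comparison held at least 20 UMIs between them, and called where its CPM ratio to Uninjured was at least 2 or at most 0.5. In mesenchymal cells 7 of 8 tested members were called higher at 1 dpi (11.5% of all 15636 genes tested) and none lower (5.46%). At 3 dpi 7 of 8 were higher (16% of all 16036) and none lower (9.18%), and at 7 dpi 6 of 7 were higher (18.6% of all 16248) and Cxcl1 lower (11.3%). With cells above the UMI limit included, or with no cell filter, 3 in place of 6 were higher at 7 dpi. With the limit lifted these were Pf4, Cxcr2 and Csf3r. Within the limit they stood at 1.78, 0.518 and 1.33 CPM at 7 dpi, under the 4.39, 1.57 and 3.06 CPM of chondrocytes. B cells at 7 dpi had 0 CPM of each but only 262204 UMIs in all, too few to set a background for such levels. Ppbp had too few UMIs to be tested. The median log2 ratio over the tested members was 3.69, 2.61 and 2.23, against 0.18, 0.13 and 0.09 over all genes tested. Of the members called, Cxcl2, Cxcl3, Pf4, Cxcr2 and Csf3r at 1 dpi and Cxcr2 and Csf3r at 3 dpi were below the level of B cells, and Csf3 rested on under 50 UMIs. The B cell level at 1 dpi came for the most part from 1 cell for Cxcl3 and in part from 1 cell for Cxcl2, as given above. For Cxcl3 it is thus a weak measure of background. For Pf4, Cxcr2 and Csf3r the intervals of both classes overlapped at 1 dpi, as they did for Cxcr2 at 3 dpi. Mesenchymal Cxcr2 and Csf3 held 8 and 3 UMIs in Uninjured, so they passed the filter of 20 UMIs only through the later library. With cells that carried markers of a second class removed, 5 in place of 7 were higher at 1 dpi. The neutrophil marker sums that moved with these counts are those given for the receptors.

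**Figure D5:**
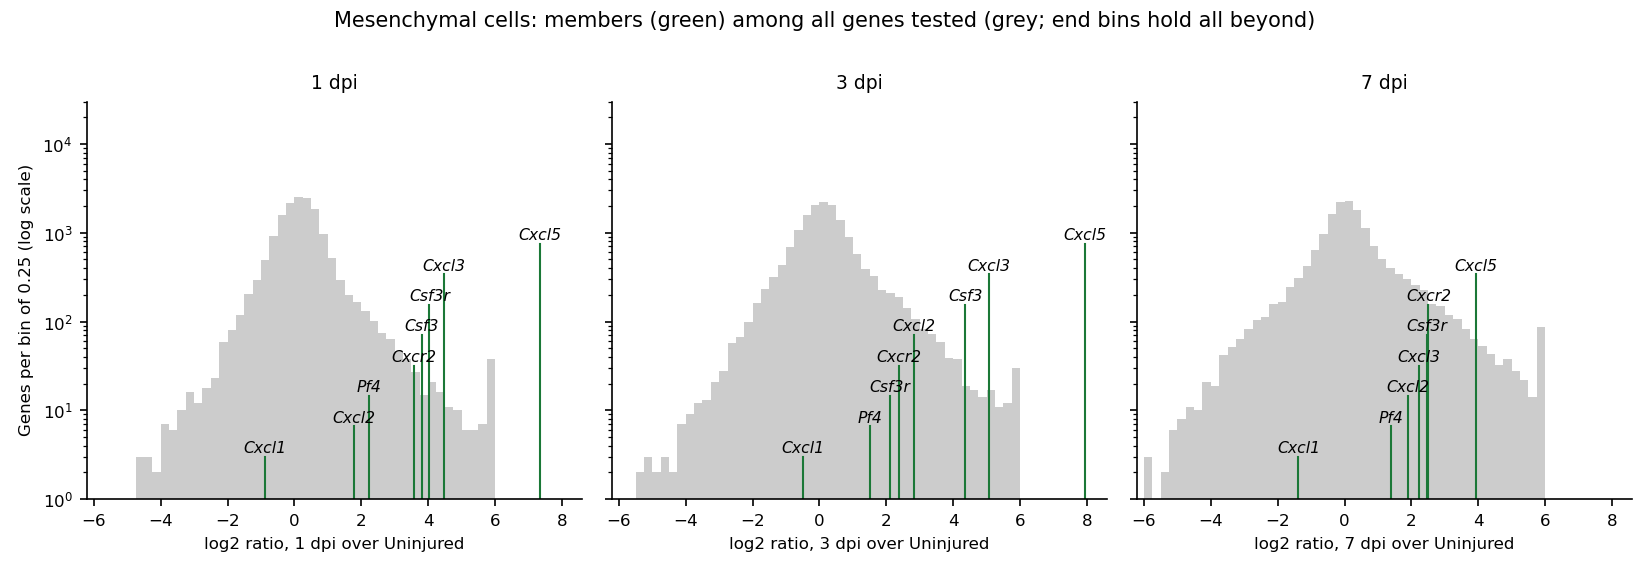
Distribution of log2 CPM ratios to Uninjured in mesenchymal cells for all genes tested (grey, bins of 0.25, end bins hold all beyond) with the members marked (green lines, whose height only separates the names), at 1, 3 and 7 dpi. Cxcl5 lies at 7.35, 7.95 and 3.93, and Cxcl1 lies below 0 at each time point.

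In monocytes and macrophages 5 of 8 tested members were higher at 1 dpi (18.3% of all 11256), 3 of 6 at 3 dpi (15.6% of all 10016) and 1 of 5 at 7 dpi (4.63% of all 8420), and none was lower (4.81%, 2.53% and 2.3%). Those higher at 1 dpi were Cxcl3, Cxcl5, Ppbp, Csf3 and Csf3r, those at 3 dpi Cxcl3, Cxcl5 and Csf3r, and at 7 dpi it was Cxcl3. The medians were 1.11, 1.19 and -0.12 against 0.25, 0.29 and 0.09. Cxcl5, Ppbp and Csf3 had no UMI in Uninjured, which counts as higher past 2-fold. With 3 UMIs put in place of the 0 they were 2.88-fold, 1.97-fold and 2.35-fold higher at 1 dpi, the values used for the median. Ppbp did not reach 2-fold by that convention, which is not a lower limit of the counting interval. A tested gene with no Uninjured UMI can only be called higher. Cxcl3, with 3 Uninjured UMIs, was likewise tested only through the later library. The calls of these genes are thus not read as a result about the members. Cxcl5 also lay near the B cell level at 1 and 3 dpi, as given above. In neutrophils, where Cxcl5, Ppbp, Pf4 and Csf3 had too few UMIs to be tested, 1 of 5 was higher (Cxcl3) and 1 lower (Cxcl1) at 1 dpi (30.1% and 5.01% of all 7227) and at 3 dpi (26.7% and 3.88% of all 4768). At 7 dpi 3 of 5, Cxcl2, Cxcl3 and Csf3r, were higher (13.7% of all 2119) and none lower (5.57%). With neutrophils taken instead as cells with a UMI of Ly6g, the gene by which the study labelled its neutrophil cluster, 35 cells in Uninjured and 24 at 7 dpi were left and none of the 3 was called. Neutrophil Cxcl3, with 3 UMIs in Uninjured, was also tested only through the later library. The neutrophil shares at 1 and 3 dpi lay under or near those of all genes, apart from the 1 lower gene.

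Other genes of the pathway were taken from 6 lists. Among 12 other CXC and CC ligands, receptors and scavengers in mesenchymal cells, 6, 6 and 2 were higher and 0, 1 and 4 lower at 1, 3 and 7 dpi. Of all genes tested in these cells 11.5%, 16% and 18.6% were higher and 5.46%, 9.18% and 11.3% lower. Cxcl13, a B cell chemoattractant, had the largest ratios at 1 and 3 dpi and was lower at 7 dpi, with values of 4.59 (4.41 to 4.78), 6.11 (5.89 to 6.34) and 0.311 (0.288 to 0.336). The monocyte chemoattractant Ccl2 had ratios of 2.63, 4.94 and 1.43 and Ccl7 2.49, 4.31 and 1.27. Ackr3, a scavenging receptor for Cxcl12, was lowest at 7 dpi, with a ratio of 0.106 (0.103 to 0.110).

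Cytokines and receptors that act upstream of these chemokines formed a further list. Of this list in mesenchymal cells 5 of 11, 8 of 12 and 4 of 12 tested genes were higher (11.5%, 16% and 18.6% of all genes tested). Lower were 0, 0 and 1 (5.46%, 9.18% and 11.3%). Csf2, which encodes GM-CSF, rested on 32, 113, 83 and 132 UMIs, with ratios of 8.25 (5.53 to 12.6), 3.74 (2.46 to 5.81) and 5.87 (3.97 to 8.94). Il6, the interleukin 6 gene, had ratios of 2.39 (2.30 to 2.49), 3.58 (3.46 to 3.69) and 0.818 (0.782 to 0.856). Il17a, a T cell cytokine, was at 0 UMIs in Uninjured mesenchymal cells and at 34 and 78 UMIs at 3 and 7 dpi, and NK and T cells held it at 17.1, 26.1, 64.1 and 33.3 CPM.

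Of 12 NF-kB targets and regulators in mesenchymal cells 1, 2 and 1 were higher and 0, 2 and 3 lower. Of all genes tested 11.5%, 16% and 18.6% were higher and 5.46%, 9.18% and 11.3% lower. The counts of higher genes thus lay near or under those shares. Tnfaip3, which limits NF-kB signalling, had ratios of 2.88 (2.70 to 3.08), 4.12 (3.89 to 4.36) and 1.94 (1.82 to 2.08), while Cebpd, a transcription factor of acute inflammation, stood at 0.577, 0.414 and 0.138. The same list gave 6, 3 and 0 higher and 0, 1 and 0 lower in monocytes and macrophages. Of all genes tested there 18.3%, 15.6% and 4.63% were higher and 4.81%, 2.53% and 2.3% lower. Ptgs2, the inducible cyclooxygenase, had ratios there of 2.88 (2.45 to 3.42), 2.44 (2.05 to 2.93) and 0.621 (0.450 to 0.846). In neutrophils 7 of 12, 4 of 12 and 4 of 10 tested genes of the list were higher (30.1%, 26.7% and 13.7% of all genes tested). None was lower (5.01%, 3.88% and 5.57%), and the 3 dpi count of higher genes was near the share of all genes. Tnfaip3 had ratios there of 3.74 (2.82 to 5.07), 3.10 (2.31 to 4.24) and 1.77 (1.18 to 2.67).

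Of 4, 5 and 4 tested neighbours of the chemokines on chromosome 5, in mesenchymal cells 0, 1 and 1 were higher (11.5%, 16% and 18.6% of all genes tested) and 1 was lower at each time point (5.46%, 9.18% and 11.3%), and Btc, an epidermal growth factor ligand, had ratios of 1.07 (0.887 to 1.29), 0.465 (0.374 to 0.575) and 0.143 (0.0984 to 0.201). Cxcl15, which lies inside the cluster between Cxcl3 and Cxcl1, had 0, 0, 0 and 1 UMIs. Of other neutrophil chemoattractant receptors and adhesion genes 7 of 9, 7 of 10 and 8 of 9 were higher and 0, 1 and 0 lower in mesenchymal cells, against the same shares of all genes. Beside them stood the neutrophil marker sums of 4.75, 147, 63.0 and 31.6 CPM there, whose part was not tested. Of the receptors, Fpr2, a formyl peptide receptor of phagocytes, had 2, 25 and 19 UMIs in Uninjured and at 1 and 3 dpi. Of the 12 dissociation genes there 0 were higher and 2, 7 and 10 lower, against the same shares of all genes.

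In monocytes and macrophages the other ligands gave 5 of 11, 5 of 11 and 1 of 9 higher and 0, 0 and 2 lower. Of all genes tested there 18.3%, 15.6% and 4.63% were higher and 4.81%, 2.53% and 2.3% lower. Ccl7 had ratios of 11.5 (10.3 to 12.8), 1.90 (1.69 to 2.15) and 1.11 (0.938 to 1.31). Tnf, which encodes tumour necrosis factor, had 4.82 (4.26 to 5.47), 1.58 (1.37 to 1.82) and 0.765 (0.612 to 0.951), and in neutrophils 12.2 (4.72 to 44.8) and 11.9 (4.54 to 44.1) at 1 and 3 dpi, from 4 Uninjured UMIs.

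Over the 37 class and library groups of at least 50 cells, the genes whose log2(CPM + 1) was most like each member were listed among 8224 genes, as a description in which groups of 1 library share its depth. Among the genes most like Cxcl1 were Clmp (Pearson r of 0.893) and Meg3 (0.860). Cxcl2 was most like Ccl6 (0.935), Il1b (0.923) and Cd300ld (0.910), and Cxcl3 like Clec4d, Acod1 and Cxcl2 (0.807, 0.807 and 0.805). Cxcl5 was most like Prg4 (0.844), Cxcl13 (0.805) and Aldh1a2 (0.687), a stromal set. Pf4 was most like Folr2 (0.899), the gate marker Ms4a7 (0.897) and C1qb (0.881). Cxcr2 was most like Nlrp12 (0.968), Il1f9 (0.965) and Mirt2 (0.960), and Csf3r like Cd33 (0.952), Trem1 (0.952) and Pilrb1 (0.951). Ppbp and Csf3 were below 50 CPM in all groups and were not ranked.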

How the data were processed

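The authors aligned reads of 4 10x libraries with Cell Ranger 5.0.0 and deposited raw UMI counts per gene and cell. Per the methods, reads were down-sampled where needed to even out samples in the count matrix. Seurat 3.1.1 and the build mm10 stand in the submitters' processing notes. Totals were 112317902, 91146335, 116346301 and 129007669 UMIs (Uninjured, 1, 3 and 7 dpi). Cells within 2 SD of their library's mean log10 UMI and gene counts and with at most 10% mitochondrial UMIs were kept. A cell entered 1 of 14 classes, of 8 markers each, with 3 or more markers and 2 more than for any other class. No doublet caller was run, and cells with 3 or more markers of a second class were removed as an alternative. Groups needed 50 cells. UMIs were summed per class and library. Intervals were exact Poisson, Clopper-Pearson and conditional binomial. Thinning drew 1000 UMIs per cell. Named genes were the 9 members, the listed pathway genes with large ratios either way and the 3 genes most like each member, of which 1 is not reported here. Members and lists were chosen with earlier results of these data known. Calculations, tested on simulated data, used scipy 1.17.1, numpy 2.4.6 and pandas 2.3.3 in Python 3.11.15, and figures matplotlib 3.10.9.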

Additional observations from a re-analysis of the deposited data

Results flagged for a closer look

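Cxcl1 moved past 2-fold in opposite directions in different classes, and the difference between classes was not tested. At 3 dpi its ratio to Uninjured was 2.05 in NK and T cells, 0.310 in neutrophils and 0.410 in satellite cells. Of the 38 Cxcl1 UMIs of Uninjured neutrophils, 27 came from 1 cell. At 7 dpi it was 2.83 in NK and T cells and 2.83 in pericytes and smooth muscle cells, against 0.385 in mesenchymal cells and 0.316 in satellite cells. With cells that carried markers of a second class removed, the log2 ratio in pericytes and smooth muscle cells was -0.38. The NK and T cell levels lay near the B cell background in each library.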

How the results depend on the processing

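Of 522 recomputed ratios of members 390 moved by less than their counting interval, 126 moved further and 6 that were past 2-fold changed sign. Sign changes of ratios short of 2-fold were not counted apart. Of 162 counts of members called 139 stayed within 1.5 times. On the log2 scale, mesenchymal Cxcl3 at 7 dpi went to -0.92 with no cell filter and -0.91 with the upper UMI limit lifted, and mesenchymal Cxcl5 at 7 dpi to -0.14 and -0.13. Lifting the limit was chosen after seeing the data. Neutrophil Cxcl1 at 1 dpi went to 0.14 as a mean over cells, and Cxcl1 of pericytes and smooth muscle cells at 7 dpi to -0.38 without mixed cells. Mesenchymal members higher at 7 dpi went from 6 to 3 under both filter changes. In monocytes and macrophages at 7 dpi, 2 were higher without mixed cells, and 3 higher and 1 lower with gates built on the study's cluster markers (a Cd68 UMI and no Ly6g UMI). In neutrophils at 1 dpi, 2 were higher with a marker lead of 1 or such a gate (a Ly6g UMI), 0 with 4 markers, no cell filter or a linear SD, and 3 with a minimum of 5 UMIs, while 0 were lower with a lead of 1, without mixed cells or as a mean over cells. At 3 dpi, 0 were higher with 4 markers, no filter or a linear SD and 2 with 5 UMIs, while 0 were lower without mixed cells, as a mean over cells or with a Ly6g UMI. At 7 dpi 1 was higher with no filter and 0 with a Ly6g UMI. Apart from the alternatives' own construction, the causes were not tested. No paired analysis was possible because each group had 1 library. Depth limits Ppbp and Csf3, with at most 86 UMIs per library, and Uninjured neutrophils, with 51 cells.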
